A study of Mus musculus with 2 samples.

Results

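The genes that make cholesterol, fatty acids and the sphingolipids of myelin were examined in white matter of the visual pathway, the optic nerve together with the optic tract. Male wild-type (WT) mice were compared with male mice lacking CD47 (CD47 null, here CD47 KO). The members were 38 genes named from these pathways by their function, and they were found among the probe sets by gene symbol. 37 of them had a probe set and 1, Acat2, was not analysed here. The 37 were part of 18193 genes on the array with a symbol of their own, of which 12473 had a signal above the floor in at least 1 genotype. The WT mice were 13 to 15 weeks and the CD47 KO mice 12 to 15 weeks of age, and the KO mice lacked CD47 in all cells. Total RNA was pooled within each genotype and each pool was hybridised to 1 Affymetrix mouse genome array. The number of mice per pool is 5 WT and 4 KO in the description of the series and the reverse in the labelling protocol. The question was whether the synthesis of myelin lipids differs in white matter when CD47, the ligand of the microglial receptor SIRPα, is absent.

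Myelin is unusually rich in cholesterol and in galactosylceramide, and oligodendrocytes build most of both themselves, because cholesterol of the blood does not cross into the brain. Cholesterol is made from acetyl-CoA through mevalonate, squalene and lanosterol, under the control of the transcription factors SREBP1 and SREBP2, which leave the endoplasmic reticulum with their escort SCAP when sterols are low and are held there by INSIG proteins when sterols are high. Long fatty acids and serine are joined to ceramide, which is turned into galactosylceramide and its sulphated form, sulphatide, in oligodendrocytes.

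Values are MAS5 signals, a measure of brightness per probe set on a linear scale, and differences are log2 ratios of CD47 KO over WT from the brightest probe set of each gene. The floor was a signal of 106.4, the median of both arrays. With 1 array per genotype no test was possible, and neither a p-value nor an SD of a genotype is given. The repeat measurement within these arrays is that of several probe sets for 1 gene. Over 7457 comparisons in 4740 genes a further probe set differed from the brightest by an SD of 0.35 in its log2 ratio. Among the members themselves this SD was 0.29, over 36 comparisons in 22 genes. It contains no variation between mice. The KO array was checked by Cd47 itself, where 3 of its 5 probe sets were above the floor in both arrays and kept 34.3% to 39.5% of the WT signal. Whether these probe sets lie in the deleted part was not examined.

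Genes of lipid synthesis had nearly the same signal in both genotypes. Of the 37 members 0 were over 2-fold higher or lower, against 1.21% of all 12473 genes over 2-fold higher and 0.818% over 2-fold lower. At 1.5-fold, again 0 members were higher, where 4.02% of all genes were, and 0 were lower, where 4.68% were. The member that was highest in CD47 KO relative to WT was Fasn (1.33-fold) and the lowest was Insig1 (1.21-fold lower). The median log2 ratio was 0.02 for the members and -0.02 for all genes. 22 members had a log2 ratio above 0 and 15 below, while 46.8% of all genes were above 0. At a narrower limit of 1.2-fold, set after looking at the values, 5 members were higher (Fasn, Mvk, Sptlc1, Acaca and Scap) and 2 lower (Insig1 and Srebf2). Among all genes 14.5% were over 1.2-fold higher and 18.6% lower. Centring both arrays on their medians made the number of members over 1.2-fold lower 0, and it was 1 with quantile normalisation, with the trend with intensity removed or with the median probe set.

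Dim probe sets have noisier ratios, and all 37 members had a signal at least 2 times the floor in both arrays. The members were therefore also set beside the 9436 genes that were at least as bright as the dimmest member. Of these genes 3% were over 1.5-fold higher and 3.18% lower, 12.5% were over 1.2-fold higher and 15.1% lower, and 48.2% had a log2 ratio above 0. The SD of the log2 ratio over genes was 0.17 for the members and 0.33 for these genes. Within 1.1-fold lay 24 of the 37 members (64.9%) and 46.9% of the 9436 genes. These genes were not matched to the members in brightness, since the median member lay at percentile 82 of all 12473 genes. The part of brightness in the difference in spread was not tested. No test of this difference in spread was made, because genes that act in 1 pathway are not independent of each other.

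**Figure D1:**
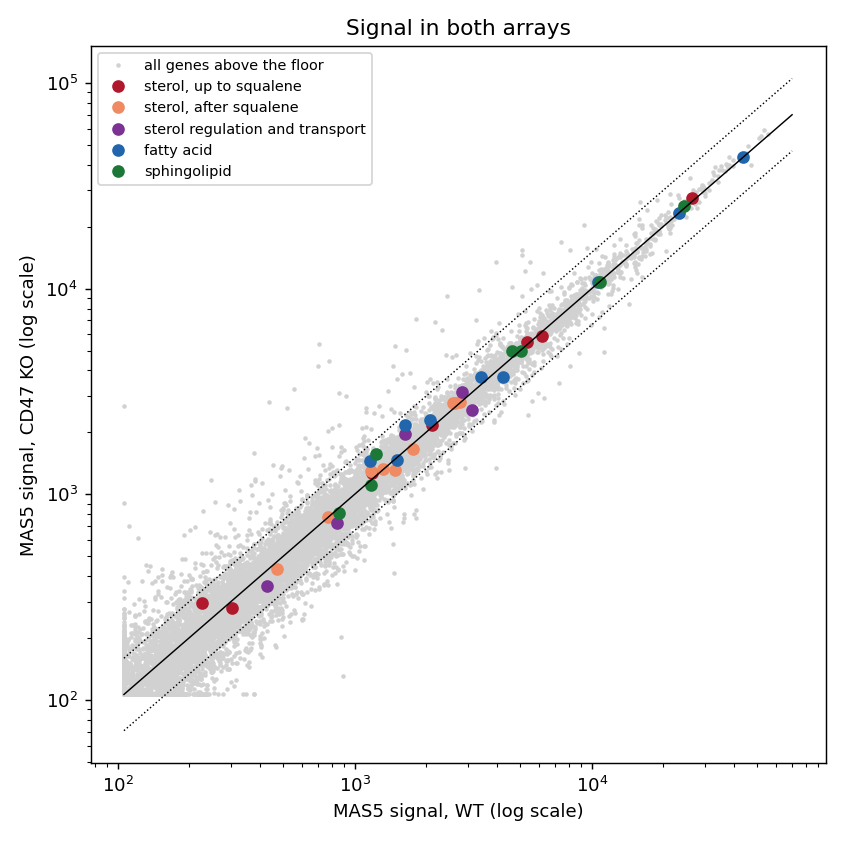
Each gene above the floor (grey) and the 37 lipid synthesis genes (coloured by step), with MAS5 signal in WT on the horizontal and in CD47 KO on the vertical axis, both logarithmic; equal signal lies on the solid line and a 1.5-fold difference on the dotted lines. All 37 coloured points lie between the dotted lines, while the grey points scatter past them on both sides.

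**Figure D2:**
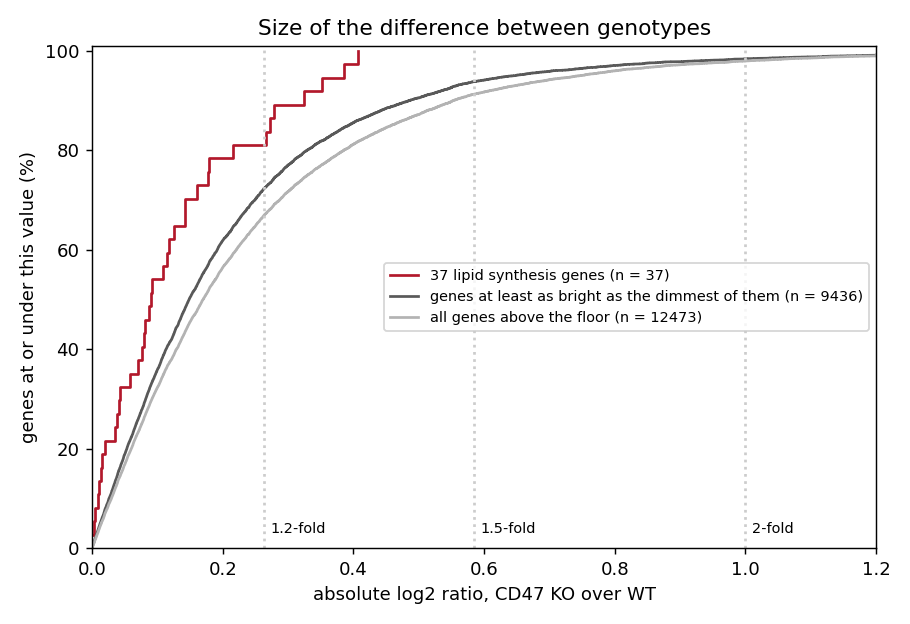
Share of genes (vertical, %) whose absolute log2 ratio of CD47 KO over WT is at or under the value on the horizontal axis, for the 37 members (red), the 9436 genes at least as bright as the dimmest member (dark grey) and all 12473 genes (light grey); dotted lines mark 1.2-fold, 1.5-fold and 2-fold. The red curve ends before 1.5-fold, at the value of Fasn (0.41).

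The promoters of the members were searched for letters that SREBPs and their partner factors are known to bind. RefSeq windows of 300 bases (build GRCm38.p6) were at hand for 31 of the 38 members and for 27025 genes in all. Both strands were searched, and a gene with several start sites was counted once. The sterol regulatory element, as TCACNCCAC, was found in 1 member, Hmgcs1 (1.44% of all genes have it), and its variant TCACNCCAT in 1, Srebf2 (0.858% of all genes). CCAAT, the letters bound by NF-Y, was found in 24 of the 31 members (77.4%) and in 41.1% of all genes, and GGGCGG, those of Sp1, also in 24 members (77.4%) and in 38.2% of all genes. The E-box CACGTG was found in 8 members (25.8%) and in 8.09% of all genes. Promoters of broadly expressed genes often hold such letters, and a match is not a site shown to be bound. Only these exact letters within 300 bases were searched, so a member without a match may still hold an element. These windows are shown for Hmgcs1, the member with a match to TCACNCCAC, and for the members with the highest and the lowest log2 ratio, Fasn and Insig1. Capitals mark each match, on either strand, of the sterol regulatory element, of the NF-Y and Sp1 letters and of the E-box, and in Fasn a pair of NF-Y matches of opposite strand overlap.
Hmgcs1 (chr13:119690101-119690400, plus strand): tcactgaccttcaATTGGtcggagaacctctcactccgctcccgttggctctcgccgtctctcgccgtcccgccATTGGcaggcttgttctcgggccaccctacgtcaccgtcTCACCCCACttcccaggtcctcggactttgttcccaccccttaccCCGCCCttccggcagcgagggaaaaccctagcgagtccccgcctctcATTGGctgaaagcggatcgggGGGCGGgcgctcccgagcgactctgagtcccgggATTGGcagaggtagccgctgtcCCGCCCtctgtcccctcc
Fasn (chr11:120824498-120824797, minus strand): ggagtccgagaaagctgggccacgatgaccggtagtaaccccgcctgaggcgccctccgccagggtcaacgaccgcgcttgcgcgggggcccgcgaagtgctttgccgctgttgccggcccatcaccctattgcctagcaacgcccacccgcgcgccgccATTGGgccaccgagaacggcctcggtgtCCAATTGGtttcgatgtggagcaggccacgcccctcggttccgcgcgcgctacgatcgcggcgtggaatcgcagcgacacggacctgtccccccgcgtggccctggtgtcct
Insig1 (chr5:28071162-28071461, plus strand): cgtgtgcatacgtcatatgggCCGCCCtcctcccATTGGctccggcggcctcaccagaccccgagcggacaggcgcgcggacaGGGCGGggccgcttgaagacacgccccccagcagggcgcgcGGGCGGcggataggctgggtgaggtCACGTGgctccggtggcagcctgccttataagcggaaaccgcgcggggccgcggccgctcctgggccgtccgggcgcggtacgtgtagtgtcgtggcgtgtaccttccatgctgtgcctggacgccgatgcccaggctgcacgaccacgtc

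For the steps from acetoacetyl-CoA to squalene the median log2 ratio was 0.04, and 5 of the 7 genes were above 0. Hmgcs1, which makes HMG-CoA and whose promoter is shown above, gave 26433 in WT and 27518 in KO (log2 ratio 0.06), and its 4 probe sets above the floor ran from -0.01 to 0.09. Mvk, mevalonate kinase, had 227 in WT and 297 in KO (log2 ratio 0.39), the highest ratio of the sterol genes. The other probe set of Mvk had a log2 ratio of -0.08, so that its probe sets went opposite ways. Pmvk, the next kinase, had 1189 in WT and 1266 in KO (log2 ratio 0.09). Mvd, the decarboxylase that yields isopentenyl pyrophosphate, had 302 in WT and 281 in KO (log2 ratio -0.11), whereas its other, dimmer probe set had a log2 ratio of 0.52. The direction of Mvd thus depended on the probe set. Idi1, the isomerase of isopentenyl pyrophosphate, had 6186 in WT and 5857 in KO (log2 ratio -0.08), and its second probe set was lower too (-0.27). Fdps, which makes farnesyl pyrophosphate, had 2122 in WT and 2178 in KO (log2 ratio 0.04). Fdft1, squalene synthase, had 5345 in WT and 5476 in KO (log2 ratio 0.03). By the brightest probe set of each gene, none of these differences except that of Mvk exceeded 1.2-fold.

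The steps from squalene to cholesterol had a median of 0.02 in their log2 ratios over 9 genes, and by the brightest probe set no gene was over 1.2-fold. Sqle, squalene epoxidase and a step at which the pathway is controlled, had 2607 in WT and 2769.6 in KO (log2 ratio 0.09). Lss, which closes squalene epoxide to lanosterol, had 1312 in WT and 1326 in KO (log2 ratio 0.02), with -0.22 by its other probe set. Cyp51, the lanosterol demethylase, had 2785 in WT and 2824 in KO (log2 ratio 0.02), and its 3 probe sets ran from -0.19 to 0.30. For Lss and Cyp51 the log2 ratio of the brightest probe set was therefore nearer to 0 than the ratios of their probe sets were to each other. Tm7sf2, a sterol reductase, had 470.3 in WT and 433 in KO (log2 ratio -0.12). Nsdhl, which helps remove methyl groups from the ring, had 1479.9 in WT and 1308 in KO (log2 ratio -0.18), the lowest of these steps. Hsd17b7, which acts in the same demethylation, had 1170.3 in WT and 1291 in KO (log2 ratio 0.14). Its 2 dimmer probe sets were higher, up to a log2 ratio of 0.58, the largest of any of the 73 probe sets above the floor and just under 1.5-fold. Ebp, the sterol isomerase, had 1764 in WT and 1657 in KO (log2 ratio -0.09). Sc5d, a desaturase of the ring, had 2641 in WT and 2771 in KO (log2 ratio 0.07). Dhcr7, which catalyses a last reduction to cholesterol, had 772 in WT and 774 in KO, a log2 ratio of 0.00. Post-squalene genes were thus spread on both sides of 0, with 6 above and 3 below.

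The 5 genes of sterol regulation and transport had a median log2 ratio of -0.22, with 3 below 0. Srebf2, which encodes SREBP2, the main activator of the sterol genes, had 429 in WT and 356 in KO (log2 ratio -0.27), but 0.01 by its other probe set. Srebf1, which encodes SREBP1, the form that acts mostly on fatty acid genes, had 2825 in WT and 3158 in KO (log2 ratio 0.16). Scap, the escort of both, had 1628 in WT and 1966 in KO (log2 ratio 0.27). The regulators therefore did not share a direction. Insig1, which holds SCAP back and is itself a target of SREBPs, had 3124 in WT and 2577 in KO (log2 ratio -0.28), the lowest of all members, from 1 probe set. Stard4, a carrier of cholesterol within cells, had 841 in WT and 724 in KO (log2 ratio -0.22), with 0.03 and 0.08 by its other probe sets. Taking for each gene the median of all its probe sets, the value for these 5 genes was 0.03 in place of -0.22. Scap, Insig1 and Srebf2 differed by just over 1.2-fold.

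**Figure D3:**
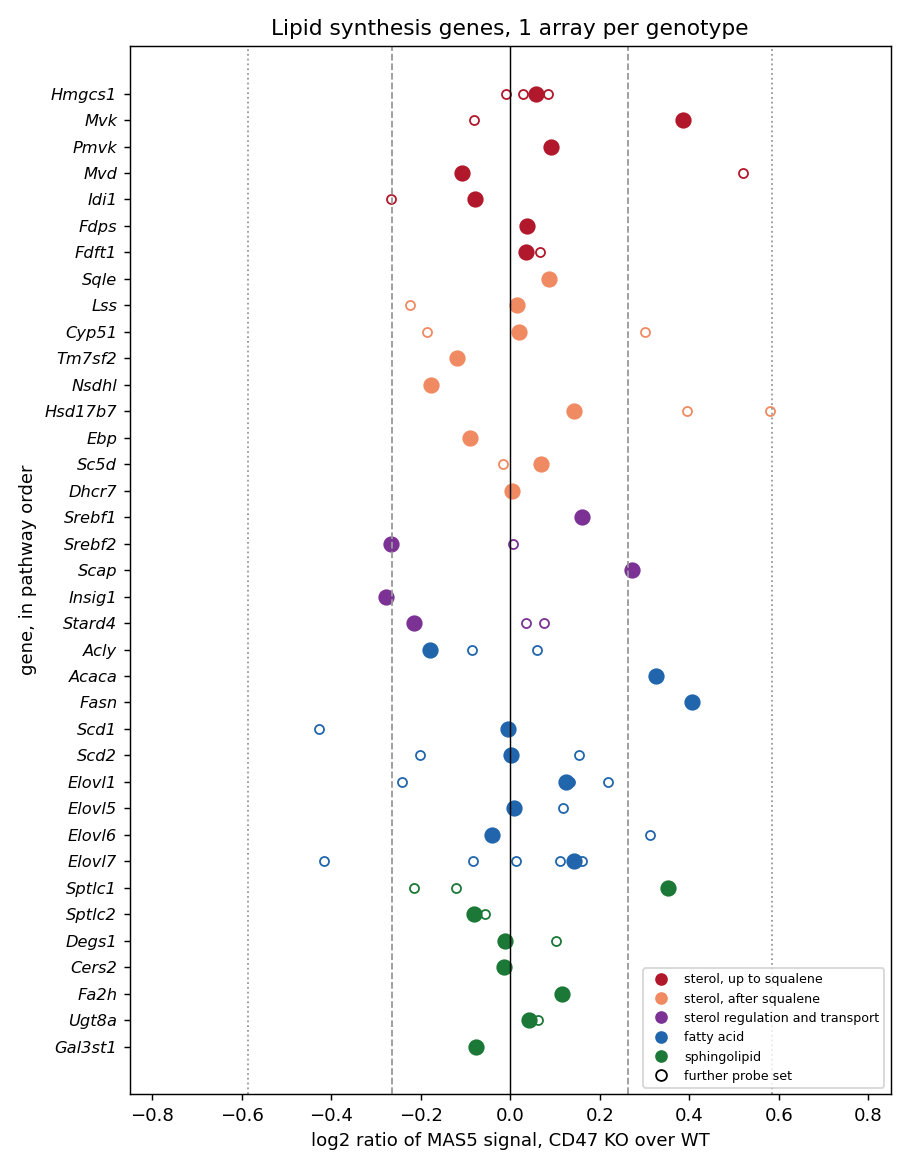
Difference between genotypes, as the log2 ratio of MAS5 signal in CD47 KO over that in WT (horizontal), for each of the 37 members in pathway order (vertical), with the brightest probe set as a filled circle and further probe sets above the floor as open circles; dashed lines mark 1.2-fold and dotted lines 1.5-fold. Every filled and open circle lies within the dotted lines, 5 filled circles lie to the right of the dashed lines and 2 to their left, and open circles often lie on the other side of 0 from the filled one.

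Among the fatty acid genes, Fasn and Acaca, the enzymes that build palmitate, were over 1.2-fold higher in CD47 KO. Fasn, fatty acid synthase, had 1637 in WT and 2169.9 in KO (log2 ratio 0.41), the highest of all members, and Acaca, acetyl-CoA carboxylase, which supplies it with malonyl-CoA, had 1163 in WT and 1456 in KO (log2 ratio 0.33). Each rested on 1 probe set above the floor, so neither had a repeat measurement. Acly, which makes the cytosolic acetyl-CoA used by both, had 4228 in WT and 3736 in KO (log2 ratio -0.18), and its 3 probe sets ran from -0.18 to 0.06. The list as a whole had a median of 0.01 over 9 genes, with 6 above 0.

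The desaturases and elongases, which shape the chains that go into myelin, were close to equal. Scd2, the stearoyl-CoA desaturase best known from the brain, had 43432 in WT and 43484 in KO (log2 ratio 0.00). Scd1, its relative, had 23276 in WT and 23201 in KO (log2 ratio 0.00, just below equality), while its much dimmer second probe set had -0.43. The further probe sets of Scd2 had log2 ratios of -0.20 and 0.15. Of the elongases, Elovl1, which makes very long saturated chains, had 3411 in WT and 3721 in KO (log2 ratio 0.13). Elovl5, an elongase of polyunsaturated chains, had 10671 in WT and 10736 in KO (log2 ratio 0.01). Elovl6, which extends palmitate, had 1507 in WT and 1464 in KO (log2 ratio -0.04), with 0.31 by its other probe set. Elovl7, another elongase of saturated chains, had 2074 in WT and 2288 in KO (log2 ratio 0.14), and its 6 probe sets ran from -0.42 to 0.16. None of the desaturases and elongases differed by 1.2-fold by its brightest probe set.

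The sphingolipid steps had a median log2 ratio of -0.01 over 7 genes, with 3 above 0 and 4 below. Sptlc1, a subunit of serine palmitoyltransferase, the first enzyme of the pathway, had 1235 in WT and 1576 in KO (log2 ratio 0.35). Its other 2 probe sets had log2 ratios of -0.12 and -0.22, and the median of all 3 was -0.12. Sptlc2, the partner subunit, had 856 in WT and 809 in KO (log2 ratio -0.08). The subunits of this enzyme therefore showed no shared difference. Degs1, the desaturase that yields ceramide, had 10857 in WT and 10774 in KO (log2 ratio -0.01). Cers2, the ceramide synthase that uses very long chains and is abundant in oligodendrocytes, had 5049 in WT and 4999 in KO (log2 ratio -0.01). Fa2h, which adds the hydroxyl group found on myelin galactolipids, had 4605 in WT and 4987 in KO (log2 ratio 0.12). The enzymes that finish the galactolipids were also close. Ugt8a, which joins galactose to ceramide, had 24561 in WT and 25303 in KO (log2 ratio 0.04), with 0.06 by its other probe set. Gal3st1, which adds sulphate to make sulphatide, had 1170.2 in WT and 1110 in KO (log2 ratio -0.08).

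The probe sets of a gene show how firm these values are. Of the 88 probe sets of the members 73 were above the floor in both arrays and 15 in neither. Of the 73, 0 were over 1.5-fold, 10 were over 1.2-fold higher and 5 lower, and their median log2 ratio was 0.02. By the brightest probe set, 4.02% of all genes were over 1.5-fold higher and 4.68% lower. At 1.2-fold these shares were 14.5% and 18.6%. The share over all probe sets is not given here, so these counts have no like background. Of the 22 members with more than 1 such probe set, 15 had probe sets on both sides of 0, and the other 15 members had 1 probe set. The absolute log2 ratio was over 0.25 for 7 members (Fasn, Mvk, Sptlc1, Acaca, Insig1, Scap and Srebf2). This limit is the SD of 1 ratio that the differences between probe sets give over all genes, if all probe sets are equally noisy. The same 7 were past 1.2-fold, so it is not a separate check. Among the members this SD was 0.20, which Stard4 (-0.22), whose probe sets disagreed in sign, also passed. Of the 7, Fasn, Acaca, Scap and Insig1 rested on 1 probe set each, and the probe sets of Mvk, Sptlc1 and Srebf2 disagreed in sign. Hsd17b7 was not among the 7 by its brightest probe set, but its 3 probe sets were all above 0, with a median of 0.40. Idi1 and Scd1 had 2 probe sets each, all below 0, with medians of -0.17 and -0.22.

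In 4 lists of other genes of these pathways 10 of 60 measured genes were over 1.2-fold higher and 9 lower, where 14.5% and 18.6% of all genes were. By the brightest probe set, 1 gene was over 1.5-fold higher and 0 lower, against 4.02% and 4.68% of all genes. These counts take 4 genes with 1 array under the floor (Nr1h3, Acacb, Elovl3 and Sptlc3) at a lower bound of their difference, so that they may be over 1.5-fold. In the list of other sterol synthesis genes the median log2 ratio was -0.07 over 7 measured genes, with 0 over 1.5-fold, and its largest were Erg28 (0.36), Aacs, which activates acetoacetate (0.35), and Tmem97 (-0.27). The list of other sterol regulation had a median of -0.02 over 11 genes, with 0 known to be over 1.5-fold. In it Mylip, which directs the LDL receptor to breakdown, went from 867 in WT to 1256 in KO (log2 ratio 0.53), Stard3, a sterol transporter of late endosomes, from 1109.5 to 775 (log2 ratio -0.52), and Nr1h3, which encodes the oxysterol receptor LXRα, from 153 to a KO signal under the floor (at least 1.43-fold lower). The list of other fatty acid genes had a median of 0.09 over 26 genes, with 16 above 0. Acsbg1, an acyl-CoA synthetase, went from 908 to 1439 (log2 ratio 0.66). By the brightest probe set it was the 1 gene over 1.5-fold among those above the floor in both arrays. Hacd4 (0.50) and Hacd2 (0.43), dehydratases of chain elongation, followed. Acacb, the acetyl-CoA carboxylase of mitochondria, went from 141 to a KO signal under the floor (at least 1.33-fold lower), and Elovl3 was above the floor in KO alone (at least 1.12-fold higher). The list of other sphingolipid synthesis had a median of 0.07 over 16 genes, with 0 known to be over 1.5-fold by the brightest probe set. Its largest were Sptssb (-0.54, but 0.57 by its other probe set), Cers4 (0.44) and Ugcg, which makes glucosylceramide (0.29). The 3 probe sets of Cers4 ran from 0.11 to 0.69, the latter over 1.5-fold. Sptlc3 was above the floor in KO alone (at least 1.13-fold higher).

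In contrast, genes that break sphingolipids down were mostly higher in CD47 KO, with 11 of 13 above 0 (46.8% of all genes) and a median log2 ratio of 0.30, or 0.17 from the median of all probe sets per gene. Hexa, a subunit of the lysosomal β-hexosaminidase, went from 4068 to 6785 (log2 ratio 0.74). Sgpl1, the sphingosine-phosphate lyase, went from 573 to 835 (log2 ratio 0.54) and Glb1, lysosomal β-galactosidase, from 538 to 775 (log2 ratio 0.53). Galc, which removes the galactose that Ugt8a adds, went from 1174 to 1524 (log2 ratio 0.38), while Arsa, which removes the sulphate that Gal3st1 adds, was at 1580.1 and 1613 (log2 ratio 0.03). Psap, the precursor of the saposins that help these enzymes, had a log2 ratio of 0.33. Asah2, a ceramidase that is not lysosomal, went the other way, from 872 to 543 (log2 ratio -0.68). By the brightest probe set only Hexa and Asah2 of this list differed by over 1.5-fold. The second probe sets of Acer2, another ceramidase (-0.79, against 0.26 by the brightest), and Smpd1, acid sphingomyelinase (-0.60, against -0.08), were also over 1.5-fold lower. Many of these genes are also active in microglia, and the part of microglia in these values was not tested. The microglial markers ran from a log2 ratio of -0.52 (Tmem119) to at least 4.66 (Cst7), with a median of 2.06. That list mixes general markers with genes that the paper reports as markedly increased in this tissue, so its median is not a measure of microglial number.

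**Figure D4:**
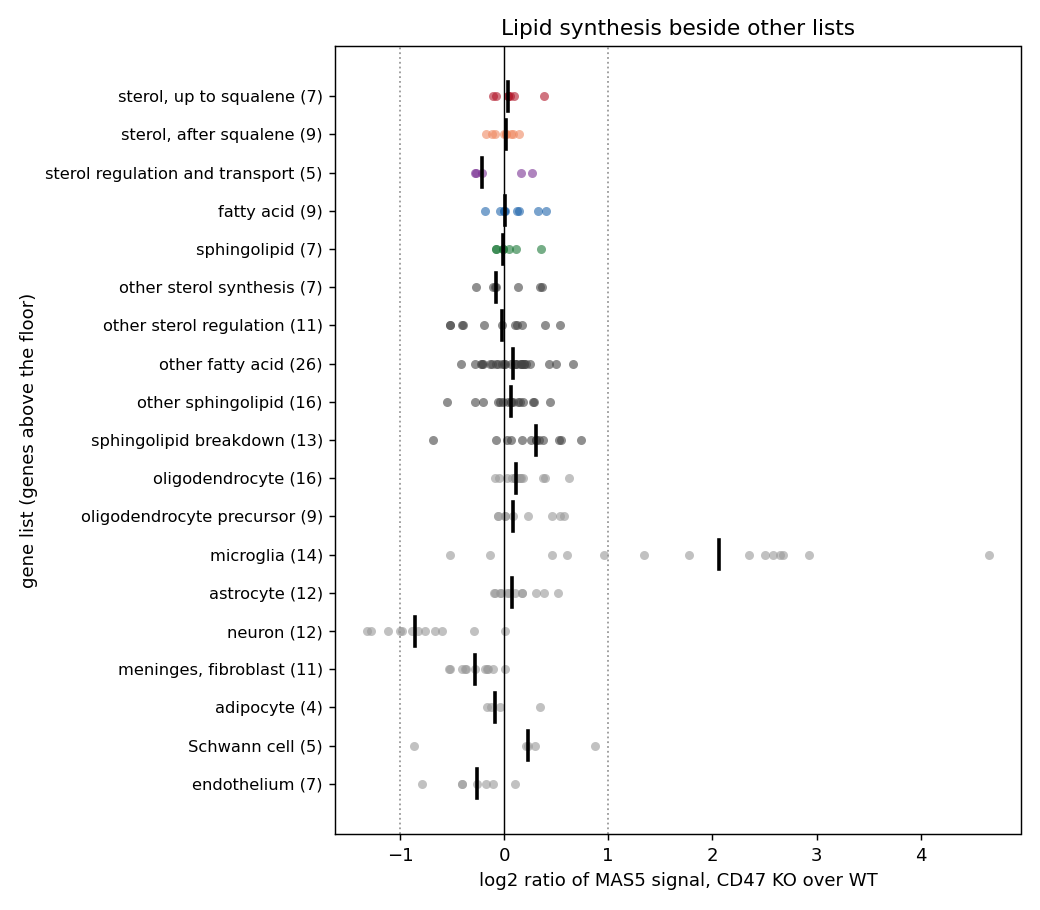
Difference between genotypes (horizontal, log2 ratio of signal in CD47 KO over that in WT) for each gene above the floor in the 5 groups of members (coloured), 5 lists of other genes of lipid metabolism (dark grey) and 9 lists of cell type markers (light grey), with the number of genes in brackets, a black bar at the median and a gene with 1 array under the floor drawn at its bound; dotted lines mark 2-fold. The members gather within 0.41 of 0, the list of sphingolipid breakdown has its median at 0.30, and the microglial and neuronal markers have medians of 2.06 and -0.85.

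Markers of the cells of the tissue were also compared. In pooled tissue they cannot tell fewer cells of a type from less RNA per cell. Oligodendrocyte markers outside the member list, such as Mobp (53099 in WT and 59026 in KO) and Mag (8582 in WT and 9236 in KO), were present in both arrays, with a median log2 ratio of 0.11 over 16 genes. By the brightest probe set 14 of these were above 0 and 1 was over 1.5-fold (Opalin, log2 ratio 0.62). The summed signal of these probe sets went from 315192 to 346179. Oligodendrocyte precursors had a median of 0.08 over 9 markers, from C1ql1 at -0.06 to Cspg4 at 0.58, with the brightest, Bcas1, at 0.01 and 2 of the 9 below 0. Astrocytes, which also make cholesterol, had a median of 0.08 over 12 markers, with Clu at 0.18 and Gfap at 0.52. Over 1.2-fold higher were 3 of the 16 oligodendrocyte, 3 of the 9 precursor and 3 of the 12 astrocyte markers, and 0 of any of them were over 1.2-fold lower, against 14.5% and 18.6% of all genes. By the brightest probe set of each gene, most markers of these cells were thus within 1.2-fold, and those past it were higher in KO. Further probe sets went past it both ways. Log2 ratios went down to -0.30 for Cspg4, -0.36 for Vcan and -0.76 for Cntn2, while Gja1 ran from -0.63 to 0.50 and Mbp up to 1.29.

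Markers of other cells differed more. Microglial markers had a median log2 ratio of 2.06 over 14 genes, with Csf1r at 0.46 and Cst7, whose WT signal was under the floor, at least 25.3-fold higher. Aif1 and Itgam, which the paper takes as general microglial markers with a moderate increase, were at 0.96 and 0.60. Tmem119 and P2ry12, known as markers of resting microglia, were instead at -0.52 and -0.14, the 2 genes of the list below 0. Of the list 11 were over 1.5-fold higher, against 4.02% of all genes. The summed signal of the list was 27980 in WT and 64894 in KO. The study picked some of these genes in part on these samples. Neuronal markers had a median of -0.85 over 12 genes. The brightest, Map2, was at -0.29 (-0.58 by its other probe set), Snap25 at -0.98 (-0.38 by its other) and Nefm at -1.32. Of them 10 were over 1.5-fold lower, against 4.68% of all genes. The summed signal of the neuronal list was 23729 in WT and 14775 in KO. Markers of meninges and fibroblasts had a median of -0.28 over 11 genes (Dcn -0.37, Aldh1a2 -0.53) and those of endothelium -0.26 over 7 (Itm2a -0.26, Kdr -0.79). The list of Schwann cells, the myelinating cells outside the brain, had 5 measured genes that went both ways, from Mal2 at -0.87 to Dhh at 0.88, with Sox10, which oligodendrocytes share, at 0.21. The part of these shifts in the ratios of the lipid genes was not tested. Of 10 fat cell markers with a probe set 6 were under the floor in both arrays, namely Adipoq, Lep, Cidec, Retn, Pck1 and Pparg. Fat cells use Fasn, Acaca and Scd1 heavily. The other fat cell markers were Cidea (722 in WT and 664 in KO), Plin4 and Lipe, with log2 ratios from -0.16 to -0.04, and Fabp4, which was above the floor in KO alone (at least 1.27-fold higher).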

How the data were processed

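Total RNA (250 ng per pool) was labelled by in vitro transcription from the 3′ end and put by the authors on 1 GeneChip Mouse Genome 430 2.0 array per genotype. The authors deposited a linear MAS5 intensity for each probe set, made with Expression Console (with a version not given in the sources used here), a program for Affymetrix arrays. The trimmed mean, with 2% left out at each end, was 500.003 on each array. Of 45101 probe sets 64 were controls, and 34945 had 1 gene symbol in the platform annotation, 932 several and 9160 none, of which only the first were used. Signals under the floor, the 50th percentile of both arrays (106.4), were set to it, and log2 ratios of CD47 KO over WT were taken from the probe set of a gene with the highest mean log2 signal. A bound with 1 array at the floor is written "at least", and medians and counts hold such genes at their bound. MAS5 is noisy near background, and 1 array per genotype limits the precision.

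The members and the 19 gene lists were chosen with earlier results of these data known. All members were named, and of the other pathway lists the 3 largest ratios and those over 1.5-fold. Of each cell type list the brightest marker and the one with the largest ratio were named. Mag, C1ql1, Tmem119, P2ry12, Glb1, Arsa, Psap, Galc, Acer2, Smpd1, the 4 pathway genes with a bound and further fat cell markers were added with their values in view. Snap25, Vcan, Cntn2, Gja1, Mbp, Aif1 and Itgam were added in the same way. The alternatives concerned the floor, the scaling and the probe set per gene. The steps were tested on simulated data. Python 3.11.15, pandas 2.3.3 and statsmodels 0.14.6 were used.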

Additional observations from a re-analysis of the deposited data

How the results depend on the processing

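The settings tried were the 40th or the 60th percentile as the floor, a pseudocount of 1 with no floor, quantile normalisation, centring on the median, removal of the trend with intensity, the median over the probe sets of a gene, and leaving out probe sets marked for cross-hybridisation, which left 31 of 37 members. Under each of the 8 the number of members over 1.5-fold was 0 in both directions, and the median over all members lay between 0.01 and 0.04. Members over 1.2-fold higher numbered 4 to 7. Members over 1.2-fold lower numbered 0 with centring on the median, and 1 with quantile normalisation, with removal of the trend with intensity and with the median over the probe sets of a gene, against 2 as reported; Insig1 and Srebf2 lie just past this limit. This limit, and the medians over all members, over sphingolipid breakdown and over oligodendrocyte markers, were added after seeing the data. Of 120 medians and counts recomputed 114 stayed close to their value, within the SD of 1 ratio divided by the square root of the number of genes, or 1.5 times for a count. The other exceptions both came from the median over the probe sets of a gene, which gave 0.035 in place of -0.22 for sterol regulation and transport, where the further probe sets of Stard4 and Srebf2 were near 0, and 0.17 in place of 0.30 for sphingolipid breakdown. Of 290 ratios of single members 6 moved by over 0.25, those of Hsd17b7, Mvd (each under both choices of probe set), Sptlc1 and Stard4. The sign changed for 6 members under another scaling, all with an absolute log2 ratio of 0.04 or less. Under any of the 8 settings it changed for 11 members. The largest main ratio among these was that of Sptlc1, 0.35, which became -0.12 with the median over its probe sets. No paired analysis was possible because each genotype had 1 array, and no replicate could be left out. Dim probe sets limit the least bright members, Mvk and Mvd.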
